A study of Mus musculus with 12 samples.

Results

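The brain patterning homeobox genes En1, En2, Gbx1, Gbx2, Otx1, Otx2, Emx1 and Emx2 form 4 pairs of paralogues, i.e. genes that arose by duplication of a common ancestor. They were taken by name, as 8 of the 21755 protein-coding genes annotated on chromosomes 1 to 19 and X. For each gene, the listed H3K27me3 sites that touched its body extended by 30 kb on both sides (the window) were collected, which gave 51 of 101389 sites. The sites come from immortalized mouse embryo fibroblasts (iMEF) in which the floxed endogenous Ash2l gene was deleted by a Cre-ER recombinase and which live on a lentiviral fusion of FKBP with human ASH2L. The study names the cells of its histone ChIP-seq as NG3, which is 1 clone. All groups shared this background. They were untreated cells and cells given dTAG, a PROTAC that directs the fusion protein to degradation, for 16 h, 24 h or 48 h. Each had 2 H3K27me3 libraries (8 in all), and the 4 inputs came from untreated cells and cells treated for 48 h. The authors joined all samples into 1 list of positions. It has no value per library, and a site may rest on any of the groups, so the response of these genes to the loss of ASH2L was not analysed here, no replicate error can be given and the depth behind a site cannot be read from it. The values below are descriptions of this pooled list and carry no test. Expression data were not analysed here, so the fibroblast label was not checked against markers.

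H3K27me3 is placed by the Polycomb repressive complex PRC2 and forms broad domains over silent, CpG-rich developmental genes. Homeobox genes encode transcription factors that bind DNA through a homeodomain. In the embryo, Otx2 specifies forebrain and midbrain and Gbx2 the anterior hindbrain. Where their domains meet, the isthmic organizer patterns midbrain and cerebellum, and En1 and En2 are expressed on both sides of it. Emx1 and Emx2 act in the dorsal telencephalon, the source of the cerebral cortex.

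Because H3K27me3 is tied to CpG-rich DNA, the DNA in front of the genes was read first. CpG islands (CGIs), stretches rich in GC and in CpG dinucleotides, were found in the sequence. A CGI lay within 1 kb of a transcription start site (TSS) of all 8 genes and over the 5′ end itself of 5. RefSeq promoter entries were not matched for En2, Gbx1 and Otx1. For 4 of the genes with an entry, the 200 bp directly upstream of the 5′ end of the gene in GENCODE are shown, read from GRCm38.p6 on the coding strand from 5′ to 3′. CpGs are in capitals. Emx1 and Emx2 are shown because the former had a listed site and the latter none, and En1 and Gbx2 are genes of other families with a site.
Emx1 (chr6:85187238-85187437, forward strand): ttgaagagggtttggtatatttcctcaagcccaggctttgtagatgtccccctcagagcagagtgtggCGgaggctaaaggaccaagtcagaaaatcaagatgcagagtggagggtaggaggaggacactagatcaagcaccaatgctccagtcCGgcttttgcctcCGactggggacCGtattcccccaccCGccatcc
Emx2 (chr19:59458172-59458371, forward strand): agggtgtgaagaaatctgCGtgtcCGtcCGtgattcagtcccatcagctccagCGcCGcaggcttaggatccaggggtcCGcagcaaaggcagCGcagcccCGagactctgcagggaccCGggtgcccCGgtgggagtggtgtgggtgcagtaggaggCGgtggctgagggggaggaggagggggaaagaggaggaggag
En1 (chr1:120602218-120602417, forward strand): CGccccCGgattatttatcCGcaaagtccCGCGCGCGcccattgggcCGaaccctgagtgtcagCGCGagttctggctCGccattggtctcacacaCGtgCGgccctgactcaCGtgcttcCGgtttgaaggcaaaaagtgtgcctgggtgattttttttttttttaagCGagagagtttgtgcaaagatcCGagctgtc
Gbx2 (chr1:89931180-89931379, reverse strand): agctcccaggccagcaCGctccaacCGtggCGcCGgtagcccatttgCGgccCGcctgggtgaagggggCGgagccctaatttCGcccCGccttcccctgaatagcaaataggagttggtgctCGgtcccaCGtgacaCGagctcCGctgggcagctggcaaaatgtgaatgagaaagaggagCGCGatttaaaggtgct
The Emx2 stretch held 11 CpGs and the Emx1 stretch 5. En1 had 17 and Gbx2 15. Over all protein-coding genes the median was 7, with quartiles of 2 and 15, and it was 6 in genes with a site over a TSS and 7 in genes without. All 200 bases were inside a listed site at En1, Gbx2 and Emx1, and 0 were at Emx2. The stretches differ in their place relative to the CGIs. Those of Emx2 and Gbx2 were wholly inside a CGI and those of Emx1 and En1 wholly outside. The nearest CGI began 60 bp downstream of the 5′ end at Emx1 and 426 bp downstream at En1. The CpG counts of these stretches therefore do not stand for the whole promoter.

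A site lay over a TSS of 7 of the 8 genes, the exception being Emx2. The 7 genes were covered at each of their annotated TSSs, which made 20 of 23. These 20 lay in only 7 sites, and 10 of them in the single TSS site of Otx2, so they are not separate observations. Over all protein-coding genes, 4650 (21.4%) had a site over a TSS, and the share was also 21.4% among the 12683 genes with a CGI within 1 kb of a TSS. A TSS site of at least 10000 bp was listed at 6 of the 8 genes, i.e. at all but Otx1 and Emx2, against 5.47% of all genes. Within the windows, sites covered a median of 70.0% of bases, and over all protein-coding genes, measured in the same way, the median was 2.79%. The order of the covered share was En2, En1, Otx2, Gbx2, Emx1, Gbx1, Otx1 and Emx2. With no library values there is no spread by which neighbours in this order could be told apart. The order also moved with the settings. With 100 kb on each side En1 came after Otx2 and Gbx2, and for the body alone Otx1 (72.9%) passed Gbx1 (52.3%), while Emx2 was the lowest throughout.

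The Engrailed genes were the most covered pair. They encode homeodomain repressors needed for midbrain and cerebellum, and En1 also acts in the ventral limb ectoderm. En2 (chromosome 5, 28165694 to 28172166, forward strand) lay in a single site of 86136 bp (28116172 to 28202307), which reached 49522 bp upstream and 36613 bp downstream of the 5′ end. This site filled 100% of the window, ran past both of its ends and was number 10 in width among all listed sites. It also crossed into Cnpy1, a gene linked to FGF signalling at the isthmus, whose nearest TSS was 44328 bp away, and covered the TSS of the transcript Gm43610. En1 (chromosome 1, 120602418 to 120607992, forward strand) had 7 sites. Its TSS site of 33643 bp (120589494 to 120623136) extended 12924 bp upstream and 20718 bp downstream. The other 6 were between 284 and 7064 bp wide, and all 7 together covered 77.8% of the window. The longest stretch without a site in it was 3960 bp. Both gene bodies were covered from end to end, and both TSSs had a site. The pair therefore differed in the flanks, where 68.6% upstream and 82.8% downstream were covered at En1 and 100% on both sides at En2. The En2 site was 2.56 times as wide as that of En1. The lncRNA 2610027F03Rik, which starts 19322 bp from En1, had its TSS in the En1 site.

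In the Gbx pair the width of the TSS site as listed and the covered share pointed in opposite directions, whereas with gaps shorter than 3000 bp closed Gbx2 was ahead in both (98860 bp against 44397 bp). Gbx2, which sets the hindbrain side of the organizer, lies on chromosome 1 (89927956 to 89931179, reverse strand). Gbx1, known from the developing spinal cord and forebrain, lies on chromosome 5 (24502757 to 24527202, reverse strand). The TSS site was wider at Gbx1, with 41556 bp (24515891 to 24557446) against 23162 bp at Gbx2 (89915290 to 89938451), a ratio of 1.79. The covered share of the window was higher at Gbx2, with 74.1% against 50.7%, and so was that of the body, with 100% against 52.3%. The marking of Gbx1 was one-sided. All of the 30 kb upstream and 0% of the 30 kb downstream were covered, and a stretch of 40293 bp at the 3′ side had no site. Within the gene, 31.4% of exonic and 55.8% of intronic bases were covered. The upstream part of the Gbx1 site held the TSSs of Asb10, which encodes an ankyrin repeat and SOCS box protein, and of 4931409K22Rik. The TSSs of Agap3, on the side without sites, had none. At Gbx2 the coverage was 88.9% upstream and 56.6% downstream. Its widest site, of 40256 bp (89943562 to 89983817), was not the one over the TSS but lay upstream, over Asb18. The transcript D130058E05Rik on the opposite strand, which starts 918 bp from Gbx2, was within the TSS site.

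**Figure D1:**
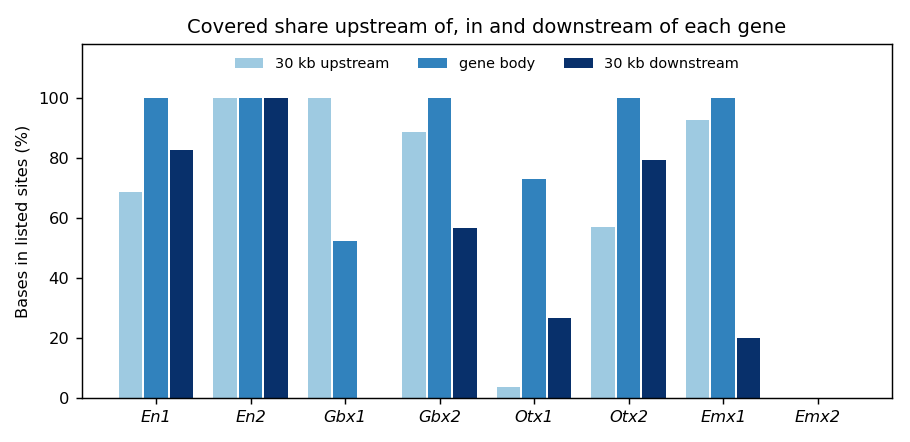
Percentage of bases inside listed sites in the 30 kb upstream, the gene body and the 30 kb downstream of each gene, 1 bar per region from the pooled list. The body bars reach 100% at 5 genes, Gbx1 has no downstream bar and Emx2 has no bar at all.

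Otx1 and Otx2 both had a TSS site but differed in its width and in the covered share. Both encode paired-type homeodomain factors of the rostral brain, and Otx2 is the one without which the forebrain does not form. Otx1 (chromosome 11, 21994764 to 22002897, reverse strand) had the narrowest TSS site of the 7 genes. It measured 3133 bp (22000860 to 22003992), reached 1095 bp upstream and 2037 bp downstream, and held all 3 TSSs. Of genes with a TSS site, 33.6% had a narrower one, the median being 4939 bp. A second site of 7500 bp (21991152 to 21998651) covered the 3′ end of the gene, and 3 sites between 1058 and 1807 bp followed downstream. The window of Otx1 was covered to 22.1%, which was higher than in 81.6% of protein-coding genes. Upstream, 3.65% was covered and the longest stretch without a site was 28905 bp. The nearest sites outside the window were 457353 and 585945 bp from its ends, the largest such distances of the 8 genes.
Otx2 (chromosome 14, 48657677 to 48673819, reverse strand) had 25 sites, the most of the 8 genes. The TSS site of 27402 bp (48649987 to 48677388) covered all 10 TSSs and the whole body, with 3569 bp upstream and 23832 bp downstream of the 5′ end. It was 8.75 times as wide as that of Otx1 as listed and 3.47 times after closing gaps shorter than 3000 bp, when the Otx1 site grew from 3133 to 18836 bp. Of the 25 sites, 13 were narrower than 1000 bp, and on the upstream side a row of narrow and wider sites, from 416 to 11360 bp, ran through Otx2os1, a lncRNA on the opposite strand that starts 153 bp from Otx2. All 7 annotated TSSs of Otx2os1 in the window were in a site. The TSS site also held the TSSs of the transcripts Gm49154 and Gm23469. Of 7 other genes with a TSS in the Otx2 window 5 had a site over it, and Gm48909 and Gm25380 had none. In total 74.9% of the window was covered, which was 52.8 percentage points more than at Otx1.

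Emx1 and Emx2 were the pair in which 1 gene had a listed TSS site and the other had none. Emx1 (chromosome 6, 85187438 to 85204462, forward strand) had both TSSs and its whole body in a site of 49864 bp (85160580 to 85210443), which reached 26858 bp upstream and 23005 bp downstream. It was the second widest TSS site of the 8 genes and number 49 in width in the list. Coverage was 92.6% upstream and 19.9% downstream of the gene, and 65.9% over the window. Emx2 (chromosome 19, 59458372 to 59465357, forward strand) had no site over its 3 TSSs and none in the window. It lay in a stretch of 235742 bp without any site (59397161 to 59632902), with the nearest site 61212 bp upstream of its 5′ end and the next 174531 bp downstream. The stretch held 4 CGIs. One of them, of 2069 bp over the Emx2 TSS (59457916 to 59459984), was the longest CGI in the windows of the 8 genes, and it had no covered base. Emx2os, an antisense transcript that starts 263 bp from Emx2, and the lncRNA 2700089I24Rik also had no site. An empty window was not rare, since 32.4% of all protein-coding genes had no site in theirs. Stretches at least as long as that of Emx2 held 32.7% of all protein-coding genes and 25.8% of those with a CGI near a TSS.
The sequence of the Emx2 window has no unknown bases, and a smaller share of it is repeat-masked than of the Emx1 window (18.5%). In GRCm38.p6 no alternate or patch sequence matched it at 99% identity or more. Among the 8 windows only that of En1 had such a match, of 2588 bp. Any part of read alignment in the empty window was not tested beyond these values. The list gives no signal, so a mark below the threshold of the peak caller cannot be told apart from no mark.

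**Figure D2:**
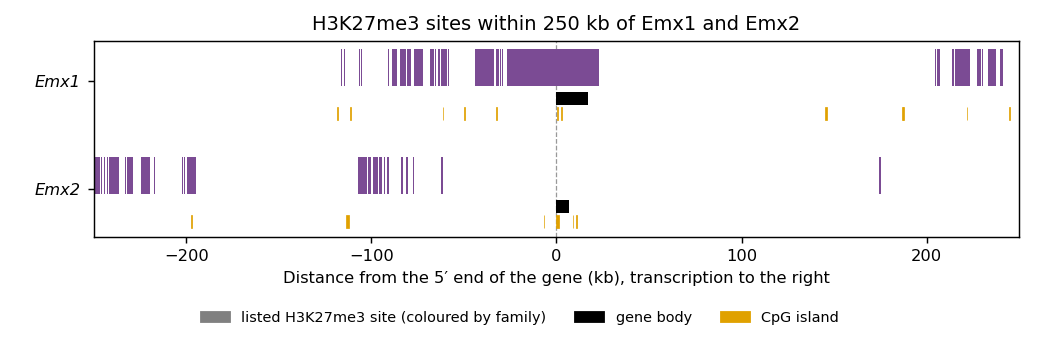
Listed H3K27me3 sites (purple), gene bodies (black) and CpG islands (yellow) within 250 kb of the 5′ ends of Emx1 and Emx2. Emx1 sits inside a site of 49864 bp, whereas the nearest sites to Emx2 are 61212 bp upstream and 174531 bp downstream.

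Extension of the gene body by other distances changed the values but not the direction in 3 of the pairs. With the body alone, Otx2 exceeded Otx1 by 27.1 percentage points and Gbx2 exceeded Gbx1 by 47.7. With 100 kb on each side these differences were 49.2 and 29.1 points. The En pair had no difference for the body alone or with 10 kb, as both genes were at 100%, and En2 exceeded En1 by 33.2 points with 100 kb. At that distance the covered share of Otx1 (7.23%) and Emx2 (5.68%) was close to the median over all protein-coding genes (5.39%).

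**Figure D3:**
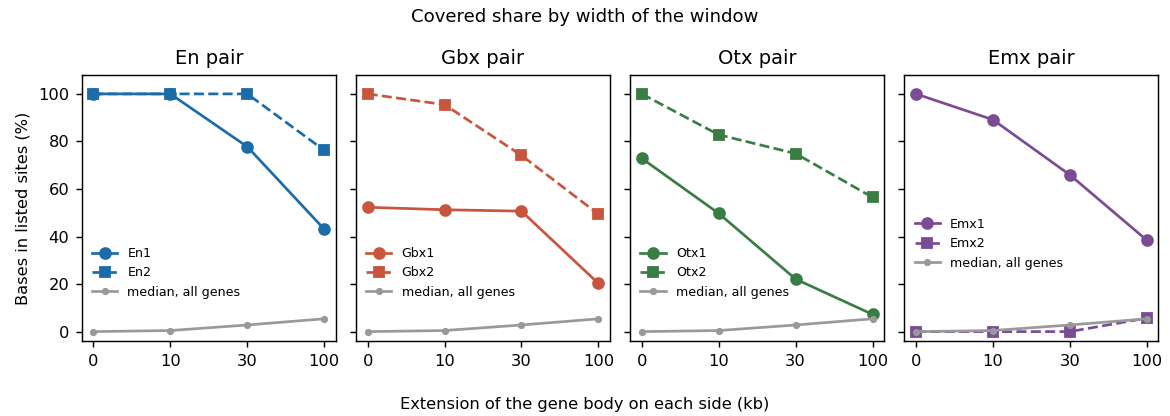
Percentage of bases inside listed sites for the gene body extended by 0, 10, 30 or 100 kb on each side (evenly spaced categories), 1 panel per pair, with the median over all protein-coding genes in grey. With 100 kb the shares of all genes but Emx2 are lower than for the body alone, and Emx2 stays near the grey line.

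Widths depend on how neighbouring stretches are joined. After closing gaps shorter than 3000 bp, the site over the 5′ end grew at each of the 7 genes, to 116023 bp at En2, 98860 bp at Gbx2, 67123 bp at Emx1, 65407 bp at Otx2, 60385 bp at En1, 44397 bp at Gbx1 and 18836 bp at Otx1. The order within the Gbx pair was reversed by this, with Gbx2 now 2.23 times as wide as Gbx1. The En and Otx pairs kept their order, the En ratio being 1.92. Emx2 still had no site.

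**Figure D4:**
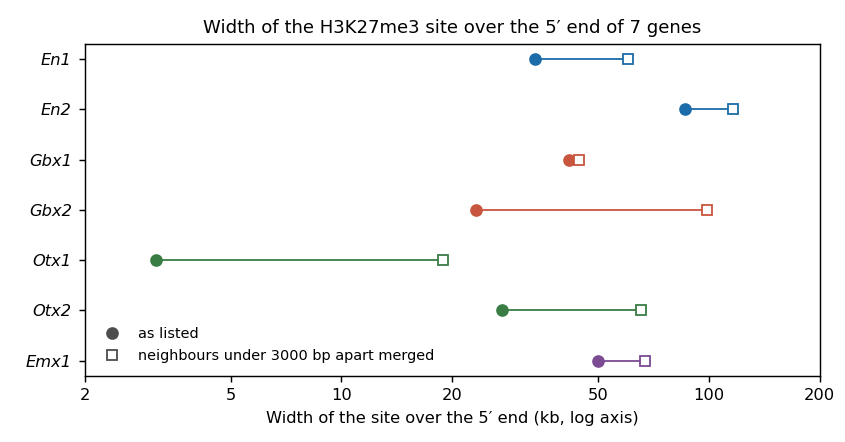
Width in kb (log axis) of the site over the 5′ end of the 7 genes that have one, as listed (filled circles) and after closing gaps shorter than 3000 bp (open squares). Gbx2 moves from 23162 to 98860 bp and passes Gbx1, which moves from 41556 to 44397 bp.

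The 51 sites of the windows were between 227 and 86136 bp wide with a median of 1115 bp, and 23 of them were under 1000 bp. Sites of at least 10000 bp numbered 8. In the whole list of 101389 sites the median was 676 bp, 63453 were under 1000 bp and 2384 were of at least 10000 bp. The limit of 30 kb left out some close neighbours, the nearest being a site of 9984 bp that began 471 bp beyond the En2 window and one of 812 bp that ended 954 bp from the Otx2 window. By their centre, 28 lay in introns of any gene, 22 between genes and 1 in an exon. Of the 25 CGIs in the windows, 17 overlapped a site, and the 8 without one were the 4 of Emx2, 3 downstream of Gbx1 and 1 upstream of Gbx2. Of all 16114 CGIs on these chromosomes, 26.2% overlapped a site. The base composition inside and outside sites could be compared in 6 windows. The ratio of observed to expected CpGs was higher inside in 4 of them, with 0.572 against 0.195 at Otx1, 0.329 against 0.185 at Otx2, 0.334 against 0.282 at Gbx2 and 0.250 against 0.154 at Emx1. At En1 it was 0.292 inside and 0.315 outside, and at Gbx1 0.267 and 0.277. GC content was likewise higher inside in 4 of 6 windows, with 51.8% against 40.8% at Otx1. In 2 windows it was higher outside, with 53.8% against 51.3% at Gbx1 and 51.6% against 49.3% at Emx1.

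Other genes of early brain patterning were taken from a list by their known roles, with earlier results of these data known. Of its 35 genes, 25 had a site over a TSS (21.4% of all protein-coding genes did), 15 had one of at least 10000 bp (5.47% of all genes) and 3 had no site in the window (32.4%). The median covered share was 34.5%, against 2.79% over all protein-coding genes. Among the organizer genes 12 of 14 had a TSS site. The widest were those of Pax2 (114741 bp), which with Pax5 (33418 bp) helps to establish the isthmus, and of Lmx1b (95936 bp), an upstream factor of Fgf8 and Wnt1. Sp8 had a TSS site of 15019 bp, Cnpy1 one of 12676 bp and Wnt1, the midbrain signal, one of 10736 bp. Spry2, a feedback inhibitor of FGF signalling, had no site in its window. Of the forebrain genes 11 of 14 had a TSS site. These included Dmbx1 (58574 bp), Lhx2 (41304 bp), Pax6 (37623 bp), Six3 (26215 bp), Lhx5 (25788 bp) and Fezf2 (25597 bp), all transcription factors of the anterior neural plate or cortex. Tcf7l1, a repressor in the Wnt pathway, had no site in its window. Of the 7 hindbrain genes 2 had a TSS site, i.e. Hoxb1 (98321 bp) and Irx2 (21580 bp), and Egr2, a factor of rhombomeres, had no site in its window.

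Families of other developmental regulators had similar counts, given here without a test. A site over a TSS was listed at 7 of 9 Pax genes, 9 of 10 LIM homeobox genes (Lhx and Lmx1) and all 7 POU class 3 and 4 genes, beside 7 of the 8 En, Gbx, Otx and Emx genes and 21.4% of all protein-coding genes. The median covered share was 54.5% for Pax, 49.7% for LIM and 45.9% for POU genes, 70.0% for the 8 genes and 2.79% for all protein-coding genes. Several Pax and LIM genes were also in the brain patterning list. Like Emx2, Lhx9 had no site in its window, and it was the only gene of the 3 families without.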

How the data were processed

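H3K27me3 was measured by ChIP-seq in 8 libraries of iMEF cells, with 4 inputs. Groups came from the sample titles and the time point labels. The table used here, as deposited by the authors, gives site positions (chromosome, start, end) in mm10, identified over all samples. Other tables were not analysed here. According to the methods, reads were trimmed (Trim Galore), mapped by BWA to mm10 (GRCm38.p6) and filtered (samtools), after which the authors pooled replicates (Picard) and called broad peaks by MACS (MACS2 in the submitters' processing notes). Cutoffs, versions and the joining rule are not given in the sources used here. A broad caller joins stretches across gaps, which sets widths.

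The comparison of untreated with treated cells that was planned needs values per library and was not run. Starts were read as counted from 0 (inferred from a smallest width of 200 bp), and positions are printed counted from 1. Genes and TSSs were those of GENCODE M21 (GRCm38), whereas the authors used M25. CGIs were maximal-scoring segments of the repeat-masked sequence (a CpG scored 17, other bases -1) with a length of 200 bp, 50% GC and a CpG ratio of 0.6 as minima. Scripts ran in python 3.11.15 with numpy 2.4.6, pandas 2.3.3, pysam 0.24.0 and numba 0.67.0, and windows were matched to other sequences of the assembly with minimap2 2.31-r1302. The interval functions were checked on simulated data. The table has no per-sample columns. The 8 genes and all lists were chosen with earlier results of these data known. Named were the 8 genes, genes crossing their TSS sites, and listed brain patterning genes with a TSS site of at least 10000 bp or without a site in the window. One listed gene and one sequence are not reported here. Lhx9 and the other neighbours were named after their values were seen.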

Additional observations from a re-analysis of the deposited data

How the results depend on the processing

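The number of genes with a site over a TSS was 7 in each of 6 alternatives (a window of 1 kb, TSSs of protein-coding transcripts, the 5′ end of the gene record, sites of at least 1000 bp, merged sites, starts counted from 1) and 6 for sites of at least 10000 bp, where Otx1 was lost. In that alternative 2 pairs, Otx and Emx, differed in the presence of a TSS site, in place of 1. The brain patterning list had 25 genes with a TSS site in 3 of its 4 alternatives and 27 with a window of 1 kb. The median covered share of the 8 genes, 70.0%, was 100% for the body alone, 86.0% with an extension of 10 kb, 40.8% with 100 kb, 75.4% after closing gaps shorter than 3000 bp and 64.9% without sites narrower than 1000 bp. The differences in covered share kept their sign in all 6 alternatives for Gbx, Otx and Emx and were 0 in 2 of 6 for En. The bases covered in the window, in place of the TSS site width, put Gbx2 (46871 bp) before Gbx1 (42787 bp). No paired analysis was possible because the list holds no value for any library, and for the same reason no replicate could be left out. The list does not give the depth of any library, so it does not show how weak a mark could still be detected.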
